A study of Homo sapiens with 4 samples.

Results

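Interferons are secreted cytokines that a cell makes on sensing viral or misplaced nucleic acid, and interferon receptors are the paired membrane chains through which cells respond to them. The 10 genes described here are the interferons IFNB1, IFNL1, IFNL2 and IFNL3 and the receptor chains IFNAR1, IFNAR2, IFNLR1, IL10RB, IFNGR1 and IFNGR2. They were taken by name from a table of 58735 genes, after each Ensembl identifier had been matched to its symbol in GENCODE release 29, and all 10 were found. The cells were A549, an established human lung adenocarcinoma line. The UHRF1 KO group (2 libraries) had received a CRISPR guide against UHRF1, whose product binds hemimethylated DNA and brings the maintenance methyltransferase DNMT1 to newly copied DNA. The control group (2 libraries) had received a non-targeting guide. Guides of both groups were carried by the lentivirus lentiCRISPRv2-hygro and infected cells were selected with hygromycin, so the control cells had also been through infection and selection. Whether each group was a pool or a clone, and how long after infection the RNA was taken, was not given in the sources used here.

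IFNB1 is a type I interferon and binds the receptor made of IFNAR1 and IFNAR2, which nearly all cells carry. IFNL1, IFNL2 and IFNL3 are type III (lambda) interferons and bind IFNLR1 paired with IL10RB, a receptor used mainly by epithelial cells such as those of the airway. IL10RB also serves the receptors of interleukin 10, 22 and 26. IFNGR1 and IFNGR2 form the receptor of interferon gamma, the type II interferon made by T cells and natural killer cells. IFNB1 and the lambda interferons are normally kept silent and are switched on through IRF and NF-kB transcription factors, which bind close to their start sites. All these receptors signal through JAK kinases and STAT proteins and raise the interferon-stimulated genes.

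The libraries held between 18604598 and 23977168 counts. Levels are CPM, counts scaled to the size of the library, after TMM scaling, and means carry their SD over 2 libraries. The labels do not say whether libraries of a group stem from different cultures, so the p-values rest on a spread that may be technical. UHRF1 itself was at 39.7 ± 0.79 CPM in UHRF1 KO and 98.2 ± 0.90 CPM in control. Its log2 fold change was -1.31 (edgeR adjusted p = 3.92e-20), so the transcript was lower but present, and the protein was not measured. KRT8 and KRT18, keratins of simple epithelia, are epithelial markers and had at least 13018 counts in every library, although they fell by 0.34 and 0.43 on the log2 scale. EPCAM, another epithelial marker, was low, with 223 and 229 counts in UHRF1 KO against 29 and 52 in control. Of 18 markers of blood, endothelial and stromal cells, 4 were at 0 in all libraries, among them LILRA4 and CLEC4C of the plasmacytoid dendritic cells that specialise in interferon production. The summed level of the 18 was 57.7 and 59.1 CPM in UHRF1 KO against 6.34 and 7.28 CPM in control, and their part in the results below was not tested. Most of that sum was PECAM1, an endothelial adhesion gene, with 607 and 759 counts in UHRF1 KO against 7 and 2 in control. Of the 18, 5 were tested and called higher, as were 32.0% of all genes tested. But 3 of these markers (PECAM1, COL1A2 and PDGFRB) lay under the minimum of the filter on low counts in both control libraries. Only a rise could bring them in.

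IFNB1 and the lambda genes were all higher in UHRF1 KO, but not by like amounts. On the log2 scale IFNB1 rose by 1.18, near IFNGR2 at 1.15, and IFNL1, IFNL2 and IFNL3 rose by 2.69, 2.13 and 1.92. The letters just before interferon starts are shown from RefSeq (GRCh38.p14), 250 bases before to 50 after the start. Beside them are those of IFNGR2, the receptor gene with the largest rise among those with a single listed start. Capitals mark matches on either strand to the IRF core, spelled AANNGAAA, and to the NF-kB consensus.
IFNB1: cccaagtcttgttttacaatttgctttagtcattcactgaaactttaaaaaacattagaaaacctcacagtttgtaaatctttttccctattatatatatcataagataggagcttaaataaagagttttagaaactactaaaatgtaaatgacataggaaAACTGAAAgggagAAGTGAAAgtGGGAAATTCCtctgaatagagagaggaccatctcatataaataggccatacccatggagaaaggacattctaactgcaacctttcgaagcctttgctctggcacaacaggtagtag
IFNL1: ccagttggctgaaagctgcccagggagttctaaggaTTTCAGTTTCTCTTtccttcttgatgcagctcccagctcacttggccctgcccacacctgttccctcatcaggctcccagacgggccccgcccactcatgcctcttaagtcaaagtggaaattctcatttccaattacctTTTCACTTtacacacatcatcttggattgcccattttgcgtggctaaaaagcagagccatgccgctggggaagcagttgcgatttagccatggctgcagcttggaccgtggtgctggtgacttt
IFNL2: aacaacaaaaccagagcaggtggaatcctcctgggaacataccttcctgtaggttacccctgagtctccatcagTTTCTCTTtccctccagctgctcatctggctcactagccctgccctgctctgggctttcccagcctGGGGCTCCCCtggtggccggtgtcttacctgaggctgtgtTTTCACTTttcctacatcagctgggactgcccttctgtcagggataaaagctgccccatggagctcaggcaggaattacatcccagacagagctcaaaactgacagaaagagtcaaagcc
IFNGR2: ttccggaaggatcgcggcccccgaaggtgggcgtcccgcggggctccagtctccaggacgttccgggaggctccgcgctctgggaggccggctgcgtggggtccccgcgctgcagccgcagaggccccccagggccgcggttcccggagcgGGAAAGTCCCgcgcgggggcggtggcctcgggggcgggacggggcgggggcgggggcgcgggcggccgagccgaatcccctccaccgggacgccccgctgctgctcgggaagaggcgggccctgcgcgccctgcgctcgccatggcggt
The windows lie at chr9:21077893-21078192, minus strand for IFNB1, chr19:39296157-39296456, plus strand for IFNL1, chr19:39268146-39268445, plus strand for IFNL2 and chr21:33403163-33403462, plus strand for IFNGR2. These RefSeq starts differ from the ends of the GENCODE genes given below. The IFNGR2 window lies wholly inside the GENCODE gene, and that of IFNL2 lies wholly before it. Promoters were listed for all members except IFNAR2.

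The IFNB1 window held 2 IRF core matches, at 89 to 82 and 76 to 69 bases before the start, and 1 NF-kB match, GGGAAATTCC, at 66 to 57 bases before it. This is the stretch long known as the virus-inducible enhancer of IFNB1. The IFNL1 window held 3 IRF core matches, of which the pair farthest from the start overlap each other, and 0 NF-kB matches. The IFNL2 window held 2 IRF core matches and 1 NF-kB match. IFNL3 differed from IFNL2 at 1 of 300 bases (C31T, counted from the first base of the window, with the IFNL2 base first), and that base lies in neither motif. A later start also listed for IFNL3 had 0 matches to both motifs. None of the receptor windows held an IRF core, and 2 held the NF-kB consensus, IFNGR2 and the more downstream of the 2 starts of IFNGR1. Among all 35116 listed promoters 22.8% held the IRF core, 5.7% held it at least 2 times and 5.9% held the NF-kB consensus. These are matches of letters and do not show binding.

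The windows also differed in CG dinucleotides, the sites of the DNA methylation that UHRF1 helps to copy. The 4 interferons had fewer than the listed receptors, with 1 in IFNB1, 6 in IFNL1, 1 in IFNL2 and 1 in the first window of IFNL3. The listed receptors had 31 in IFNLR1, 25 in IL10RB, 44 in IFNGR2, 29 and 25 in the 2 windows of IFNGR1 and 19 and 30 in the 2 windows of IFNAR1. The median of all listed promoters was 14, with quartiles of 4 and 28. IFNL1, IL10RB, the IFNGR1 window with 25 and the IFNAR1 window with 19 lay between these quartiles. Methylation itself was not measured in these samples.

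All 4 interferons were higher in UHRF1 KO, and 3 of the 6 receptor chains were, with IFNGR1 and IFNGR2 above 2-fold and IFNLR1 below it. The chains of the type I receptor, IFNAR1 and IFNAR2, did not pass the test, and neither did IL10RB. Of all 17030 genes tested with edgeR at an adjusted p under 0.05, 62.0% were called, 32.0% higher and 30.1% lower, and 15.4% were called at least 2-fold higher, so a rise was common in this comparison. All 10 members passed the filter on low counts. IL10RB passed it through the UHRF1 KO libraries, since only 1 of its control libraries reached the minimum, and the others reached it in all 4. The direction of every call of a rise among the members was the same in all 13 alternative ways of processing. In bulk RNA, more cells that express a gene and more RNA per cell cannot be told apart.

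IFNL1 was the most abundant interferon transcript in both groups. It had 828 and 994 counts in UHRF1 KO against 120 and 105 in control, or 39.93 and 39.99 CPM against 6.73 and 5.66 CPM. The groups were far apart, and the UHRF1 KO libraries were nearly equal. The log2 fold change was 2.69 (SE 0.10), a 6.45-fold rise (edgeR adjusted p = 1.78e-21). The gene (ENSG00000182393) lies on chromosome 19 at 39296325 to 39298673 on the plus strand of GRCh38.

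IFNL2 and IFNL3 are near-identical copies on opposite strands of the same locus, at 39268514 to 39270092 and 39243553 to 39245129 of chromosome 19. IFNL2 had 186 and 222 counts in UHRF1 KO against 39 and 35 in control. IFNL3 had 172 and 175 counts in UHRF1 KO against 42 and 31 in control. The groups did not overlap for either gene. Libraries of a group lay close together for IFNL2 and less so for IFNL3, which was at 8.29 and 7.04 CPM in UHRF1 KO against 2.355 and 1.671 CPM in control. IFNL2 rose 4.39-fold (log2 fold change 2.13, SE 0.19, edgeR adjusted p = 9.63e-12) and IFNL3 rose 3.80-fold (1.92, SE 0.20, edgeR adjusted p = 6.53e-10). Of the 50-base windows of the annotated transcripts, 32.0% of those of IFNL2 and 31.4% of those of IFNL3 also occur in a transcript of another gene, nearly all of them in each other. The treatment of reads that match both was not given in the sources used here, so their split is uncertain. Summed to 1 feature, a choice made after the values were seen, they had 358 and 397 counts in UHRF1 KO against 81 and 66 in control and rose 4.10-fold (SE 0.14 on the log2 scale, edgeR adjusted p = 2.04e-14). No window of IFNL1 or IFNB1 occurs in another gene's transcripts.

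IFNB1 (ENSG00000171855, chromosome 9, 21077105 to 21077963, minus strand) rested on few counts. It had 81 and 78 counts in UHRF1 KO against 20 and 36 in control, or 3.91 and 3.14 CPM against 1.12 and 1.94 CPM. The groups did not overlap, but the control libraries differed from each other more than the UHRF1 KO libraries did. The rise was 2.27-fold (log2 fold change 1.18, SE 0.27, edgeR adjusted p = 3.26e-04), and the log2 fold change ran from 0.83 to 1.62 when single libraries were left out. It was the smallest of the 4 interferon rises.

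The makeup of the interferon transcripts differed between the groups. IFNL1 made up 65.4% and 67.7% of the counts of the 4 interferons in UHRF1 KO against 54.3% and 50.7% in control. IFNB1 made up 6.39% and 5.31% in UHRF1 KO against 9.05% and 17.4% in control. Set per length of exons within each library, IFNL1 was 10.2 and 12.8 times IFNB1 in UHRF1 KO against 6.01 and 2.92 times in control. The control libraries differed widely in this ratio and rested on 20 and 36 counts of IFNB1, and both lay below the UHRF1 KO values. The shares also depend on how reads that match both IFNL2 and IFNL3 were counted, which was not given. These shares and ratios are descriptions and were not tested.

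**Figure D1:**
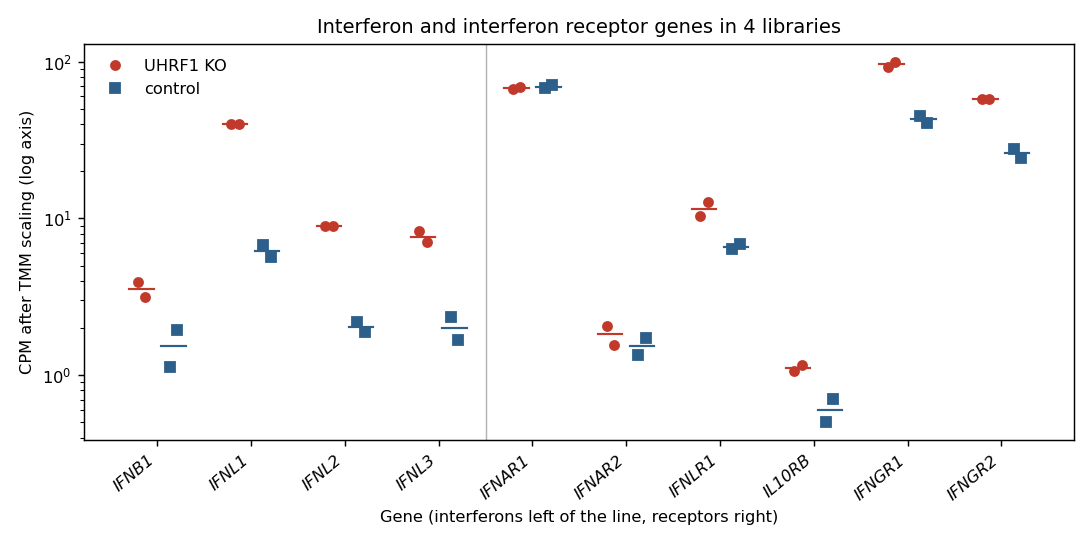
CPM after TMM scaling on a log axis for the 10 genes, with UHRF1 KO libraries as circles left of the control libraries as squares and a line at each group's mean (n = 2). The groups lie apart for the 4 interferons, IFNLR1, IL10RB, IFNGR1 and IFNGR2, and overlap for IFNAR1 and IFNAR2.

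Most other interferon genes stayed at or near 0. Of 18 further genes (the IFNA family, IFNE, IFNK, IFNW1, IFNG and IFNL4), 10 had no count in any library, and 1, IFNE, was tested. IFNG was among those at 0, where 3 counts would be 0.121 to 0.168 CPM depending on the library. IFNE, an interferon of epithelia, had 48 and 50 counts in UHRF1 KO against 51 and 51 in control, the log2 fold change being -0.38 (SE 0.25, edgeR adjusted p = 0.188). Its levels were 2.315 and 2.011 CPM in UHRF1 KO, both below the 2.86 and 2.749 CPM of control, as for 38.4% of all genes tested. IFNL4, which lies between IFNL3 and IFNL2 and is annotated as a polymorphic pseudogene, had 9 and 21 counts in UHRF1 KO against 5 and 5 in control and was not tested. IFNA1 had 6 and 6 counts in UHRF1 KO against 8 and 4 in control. The IFNA genes are close copies of one another, so counts this low cannot be assigned to 1 of them with confidence. No gene of this list was called in either direction by the main edgeR fit, DESeq2 or limma-voom. None passed an unadjusted p under 0.05 in the main edgeR fit. IFNE was called lower by edgeR with trends on GC content and gene length removed and libraries recentred.

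Both chains of the interferon gamma receptor rose by similar amounts. IFNGR1, the ligand-binding chain (ENSG00000027697, chromosome 6, 137197484 to 137219449), had 1921 and 2473 counts in UHRF1 KO against 802 and 758 in control, or 92.6 and 99.5 CPM against 45.0 and 40.9 CPM. It rose 2.24-fold (log2 fold change 1.16, SE 0.058, edgeR adjusted p = 5.46e-18). IFNGR2, the partner chain (ENSG00000159128, chromosome 21, 33402896 to 33479348), had 1202 and 1430 counts in UHRF1 KO against 493 and 451 in control, or 58.0 and 57.5 CPM against 27.6 and 24.3 CPM. It rose 2.22-fold (log2 fold change 1.15, SE 0.070, edgeR adjusted p = 9.38e-16). Per length, IFNGR1 stood at 1.44 and 1.56 times IFNGR2 in UHRF1 KO and at 1.47 and 1.52 times in control, so their ratio within a library overlapped between the groups. The exons of IFNGR2 share 12.8% of their bases with TMEM50B on the opposite strand, and TMEM50B itself was at 0.14 on the log2 fold change scale (edgeR adjusted p = 0.171).

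The type I receptor chains gave another picture. IFNAR1 had 66.9 and 68.6 CPM in UHRF1 KO against 68.1 and 70.5 CPM in control, from 1215 to 1706 counts. The groups overlapped, and the log2 fold change was -0.03 (approximate 95% interval -0.14 to 0.07, edgeR adjusted p = 0.623). With trends on GC content and gene length removed and libraries recentred on their mean it was -0.28 (edgeR adjusted p = 4.43e-06), and that setting moved the median log2 fold change of all genes to -0.30, from 0.02 with TMM. Calls split into 3233 higher and 8903 lower under it, where TMM gave 5445 higher and 5118 lower. IFNAR1 was not called in the other 12 alternatives, where its adjusted p reached 0.906. Read within a library, where no scaling enters, IFNGR1 was 2.66 and 2.79 times IFNAR1 per length in UHRF1 KO against 1.27 and 1.11 times in control. IFNGR2 was 1.84 and 1.78 times IFNAR1 in UHRF1 KO against 0.864 and 0.734 times in control. Both gamma receptor transcripts thus stood above that of IFNAR1 in UHRF1 KO, while in control IFNGR2 lay below it.

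IFNAR2, which carries the main signalling tail of the type I receptor, had 43 and 39 counts in UHRF1 KO against 24 and 32 in control. The groups overlapped in CPM, and the log2 fold change was 0.23 (approximate 95% interval -0.38 to 0.84, edgeR adjusted p = 0.535), which is too wide to tell no change from a rise near that of IFNLR1. IL10RB had 22 and 29 counts in UHRF1 KO against 9 and 13 in control, or 1.06 and 1.17 CPM against 0.505 and 0.701 CPM. Its groups did not overlap, but the log2 fold change of 0.88 (SE 0.42) did not pass the test (edgeR adjusted p = 0.0685). It passed with GC and length trends removed without recentring (edgeR adjusted p = 0.0386). It also passed with a minimum of 1 CPM in 2 libraries (0.0494), a minimum that it reached in the UHRF1 KO libraries alone, so that call is no support. It did not pass in the other 11 alternatives, where adjusted p reached 0.302. Of all genes tested, 41.6% had UHRF1 KO libraries that both lay above both control libraries, and 38.4% had them both below, against 8 and 0 of the 10 members.

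IFNAR2 and IL10RB are neighbours on chromosome 21, and their annotated exons are shared with other genes. A gene model that joins them, AP000295.1, shares 44.2% of the exon bases of IFNAR2 and 38.1% of those of IL10RB on the same strand, and itself had 1 count over the 4 libraries. IL10RB-DT shares a further 39.1% of the IFNAR2 bases on the opposite strand. This leaves 773 of 4614 exon bases of IFNAR2 and 2816 of 4548 of IL10RB to that gene alone. The rule for reads over shared bases was not given in the sources used here, and the part of this overlap in the low counts of IFNAR2 and IL10RB was not tested. Per kb of all exons IFNAR2 was at 0.395 CPM in UHRF1 KO and 0.333 CPM in control. If all its counted reads lay in its unshared bases, the values per kb of these would be 2.36 CPM in UHRF1 KO and 1.99 CPM in control. Reads over the unshared bases alone were not counted.

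IFNLR1, the chain specific to lambda interferons (ENSG00000185436, chromosome 1, 24154157 to 24187959, minus strand), had 215 and 316 counts in UHRF1 KO against 113 and 127 in control, or 10.4 and 12.7 CPM against 6.34 and 6.85 CPM. The groups did not overlap. It rose 1.76-fold (log2 fold change 0.81, SE 0.14, edgeR adjusted p = 5.28e-06). The value was 0.42 with trends removed and libraries recentred (edgeR adjusted p = 0.00586, the highest of the 13 alternatives, whose lowest was 2.82e-08).

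Per kb of exons the order of levels differed between the groups. In UHRF1 KO it ran IFNL1 at 46.6 ± 0.049 CPM per kb, IFNGR1 at 29.3 ± 1.48, IFNGR2 at 19.5 ± 0.10, IFNL2 at 12.1 ± 0.037, IFNAR1 at 10.8 ± 0.19, IFNL3 at 9.94 ± 1.15, IFNB1 at 4.10 ± 0.63 and IFNLR1 at 2.34 ± 0.34, then IFNAR2 and IL10RB. IFNL3 overlapped IFNAR1 in this order, and every other neighbour was apart from the one above it. The places of IFNL2 and IFNL3 depend on how reads that match both were counted. In control it ran IFNGR1 at 13.1 ± 0.89 CPM per kb, IFNAR1 at 11.0 ± 0.27, IFNGR2 at 8.78 ± 0.80, IFNL1 at 7.23 ± 0.88, IFNL2 at 2.76 ± 0.29, IFNL3 at 2.61 ± 0.63, IFNB1 at 1.78 ± 0.67 and IFNLR1 at 1.34 ± 0.073, then IFNAR2 and IL10RB. From IFNL3 down to IFNLR1 each gene overlapped the one above it. IFNL1 thus stood above all receptor chains in UHRF1 KO and below IFNGR1, IFNAR1 and IFNGR2 in control.

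**Figure D2:**
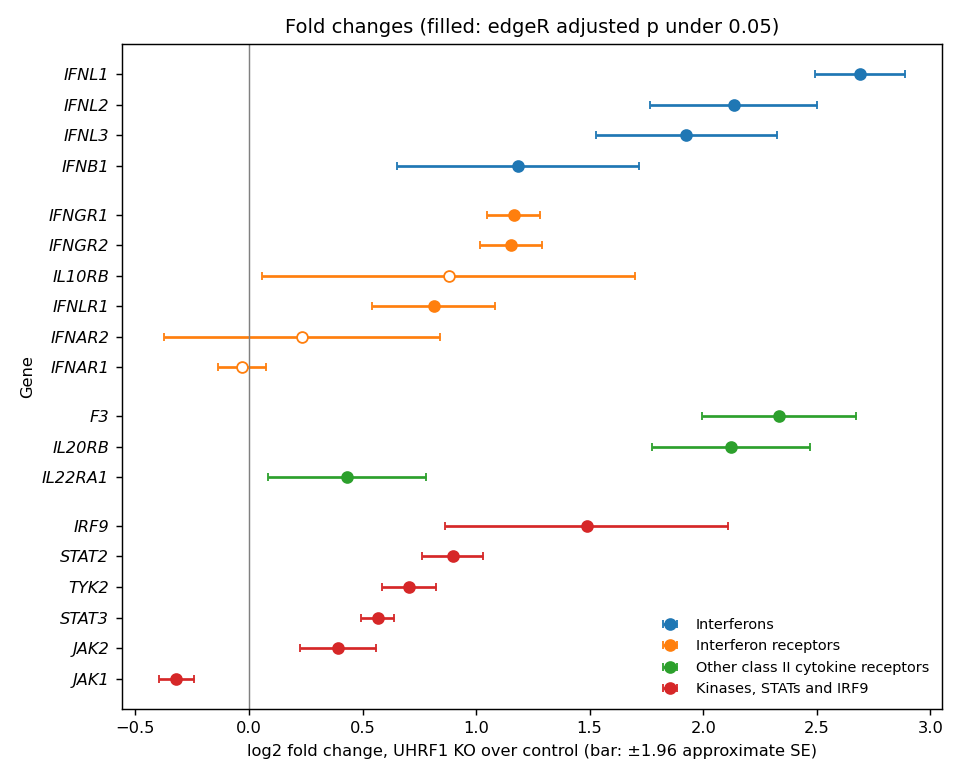
log2 fold change of UHRF1 KO over control with bars for approximate 95% intervals, filled where the edgeR adjusted p was under 0.05, for the interferons, their receptors, other receptors of the same family and those kinases, STATs and IRF9 that passed the test among the genes that carry the signal. IFNL1 leads the interferons at 2.69, IFNGR1 and IFNGR2 sit together near 1.15, and IFNAR1 lies at -0.03.

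Interferon receptors belong to the class II cytokine receptor family, whose other members with counts were compared. F3, which encodes tissue factor and shares the family's fold, was at 11.0 ± 0.037 CPM in UHRF1 KO and 2.17 ± 0.10 CPM in control, the log2 fold change being 2.33 (edgeR adjusted p = 1.37e-13). IL20RB, a chain of the receptors for interleukin 19, 20 and 24, was at 10.1 ± 0.79 CPM in UHRF1 KO and 2.31 ± 0.14 CPM in control, the log2 fold change being 2.12 (edgeR adjusted p = 2.68e-12). IL22RA1, which pairs with IL10RB or IL20RB, had 143 and 140 counts in UHRF1 KO against 73 and 95 in control. Its log2 fold change of 0.43 (edgeR adjusted p = 0.0342) lost the call in 7 of 13 alternatives, among them those without UHRF1 KO replicate 1 (adjusted p = 0.270) or without control replicate 1 (0.282), and was -0.0043 with libraries recentred. IL20RA, IL22RA2 and IL10RA had at most 2 counts in any library and were not tested. Among the other cytokines of the family IL24 alone was tested, having cleared the filter by its UHRF1 KO libraries, with 148 and 236 counts in UHRF1 KO against 12 and 6 in control, the log2 fold change being 4.06 (edgeR adjusted p = 2.51e-14).

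The genes that carry the receptor signal went in different directions. The gene lists here and below were chosen with earlier results of these data known, so their counts are descriptions. Of 7 tested, 5 rose and 1 fell, where 32.0% of all genes tested were called higher and 30.1% lower. IRF9, a DNA-binding partner of STAT2, had 51 and 62 counts in UHRF1 KO against 16 and 16 in control, the log2 fold change being 1.49 (SE 0.32, edgeR adjusted p = 1.41e-04). STAT2 rose by 0.90, STAT3 by 0.57 and the kinase TYK2 by 0.70 on the log2 scale, each with an edgeR adjusted p of at most 5.64e-12. JAK2, a kinase of the gamma receptor, rose by 0.39 (edgeR adjusted p = 1.71e-04), and was at 0.15 with libraries recentred (adjusted p = 0.0894). JAK1, the kinase that the type I, II and III receptors share, fell to 189.4 ± 0.85 CPM in UHRF1 KO, against 236.4 ± 3.37 CPM in control, the log2 fold change being -0.32 (edgeR adjusted p = 1.20e-08). The median of the list was 0.57, against 0.02 over all genes tested.

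Of the 18 genes listed for the sensing of nucleic acid and the switching on of interferon genes, 12 rose and 1 fell. The median log2 fold change was 0.53. IRF1 also stands in the list of gamma targets below, so its rise is counted in both. Whether these rises came before or after those of the interferons was not tested. TMEM173, among the risers, reached the minimum of the filter in only 1 control library. Without it 11 of 17 genes rose and 1 fell, with a median of 0.48. The shares over all genes tested were 32.0% called higher and 30.1% lower. JUN, part of the factor assembly on the IFNB1 enhancer, rose 2.20-fold to 538.5 ± 7.13 CPM in UHRF1 KO, against 244.9 ± 2.66 CPM in control. The RNA sensors DDX58 (RIG-I) and IFIH1 (MDA5) rose by 1.10 and 0.97 on the log2 scale and IRF1 by 1.58, each with an edgeR adjusted p of at most 1.64e-14. TRIM25, which helps to activate RIG-I, was the 1 that fell, by 0.49. With trends removed and libraries recentred, 6 of the list were called lower, and 8 to 13 were called higher over all alternatives.

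Among 9 negative regulators of interferon signalling 5 rose and 3 fell, where 32.0% of all genes tested were called higher and 30.1% lower. SOCS3, a feedback inhibitor of JAK signalling, was at 404.4 ± 14.5 CPM in UHRF1 KO and 53.8 ± 1.04 CPM in control, the log2 fold change being 2.91 (edgeR adjusted p = 3.20e-32). SOCS1, the chief inhibitor of gamma and type I signalling, had 27 and 21 counts in UHRF1 KO against 1 and 1 in control, a ratio of 19.2 with an exact 95% counting interval of 5.02 to 162.7. This interval allows for counting noise alone and not for the further spread between libraries. SOCS1 cleared the filter by its UHRF1 KO libraries, and without it 4 of 8 listed regulators rose and 3 fell. The phosphatase PTPN1 rose by 0.77 on the log2 scale and PIAS1, an inhibitor of STAT signalling, fell by 0.34, both at an edgeR adjusted p of at most 2.26e-05.

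Most listed targets of the receptors rose, in lists chosen with earlier results of these data known. Over all genes tested 32.0% were called higher (15.4% at least 2-fold) and 30.1% lower. Of 28 listed targets of type I and III interferon 27 were tested and 26 rose, 18 of them at least 2-fold, with a median log2 fold change of 1.24. MX2, IFI44L, EPSTI1 and RTP4 cleared the filter by their UHRF1 KO libraries, so their entry depended on being high there. Without them 22 of 23 rose, 14 at least 2-fold, with a median of 1.07. A fall was called for 0 of them by edgeR, DESeq2 or limma-voom, and likewise for 0 at an unadjusted edgeR p under 0.05, and HERC6, at 0.14, was the 1 not called. IFI27 rose 23.6-fold to 29.9 ± 1.17 CPM in UHRF1 KO, against 1.26 ± 0.20 CPM in control, and the antiviral synthetase gene OAS2 rose 6.63-fold. ISG15 and OAS1 rose by 2.44 and 1.24 on the log2 scale. Of 15 listed targets mainly of interferon gamma 14 were tested, 9 rose and 1, WARS, fell by 0.12, with a median of 1.31. GBP5 and IDO1 cleared the filter by their UHRF1 KO libraries, and without them 7 of 12 rose, with a median of 0.97. CXCL11, a T cell chemokine, had 181 and 221 counts in UHRF1 KO against 32 and 49 in control, and GBP3 and TAP1 rose by 1.41 and 0.72 on the log2 scale. No gene of this list was called lower in 4 of the 13 alternatives, those that leave out either UHRF1 KO library among them. Many of these genes answer to more than 1 type of interferon and to NF-kB, and the interferon proteins were not measured.

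The positions of the members allow their neighbours to be compared, taking protein-coding genes within 150 kb of a member. Around all members 22 neighbours were tested, of which 10 rose and 6 fell, while over all genes tested 32.0% were called higher and 30.1% lower. Leaving out 4 neighbours that reached the filter minimum in fewer than 2 control libraries, 8 of 18 rose and 6 fell. The median log2 fold change of these 18 was 0.06. Around the lambda genes on chromosome 19, 11 of 13 neighbours were tested, 7 rose and 2 fell. Of the risers, NCCRP1 and ACP7 cleared the filter by their UHRF1 KO libraries. NCCRP1, whose start lies at -99.4 kb from that of IFNL1, had 1029 and 1221 counts in UHRF1 KO against 5 and 5 in control, the log2 fold change being 7.46 (SE 0.17, edgeR adjusted p = 1.43e-27). ACP7 had 416 and 541 counts in UHRF1 KO against 3 and 17 in control. Its log2 fold change was 5.24, but 6.89 without control replicate 2 and 4.49 without control replicate 1. ZFP36, whose product degrades cytokine mRNAs, was at 728.8 ± 19.0 CPM in UHRF1 KO and 133.5 ± 1.24 CPM in control, the log2 fold change being 2.45 (edgeR adjusted p = 2.79e-32). The other risers, LRFN1, SAMD4B, PLEKHG2 and SUPT5H, had log2 fold changes of 0.21 to 0.40, and all 4 turned below 0 with libraries recentred. PAF1 and RPS16 fell by 0.24 and 0.48, and PAK4 and MED29 did not pass the test. PAK4 was called lower in 2 of 13 alternatives and MED29 in 4, with recentring at -0.52 and -0.45 (edgeR adjusted p = 1.66e-16 and 2.09e-13).

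Around the receptor cluster on chromosome 21 none of the 6 tested neighbours outside the set rose and 3 fell, none rising also at an unadjusted edgeR p under 0.05. Over all genes tested, 32.0% were called higher and 30.1% lower. SON, GART and CRYZL1 fell by 0.39, 0.24 and 0.43 on the log2 scale. TMEM50B rose past the threshold in 1 of 13 alternatives, with trends removed without recentring (log2 fold change 0.26, edgeR adjusted p = 0.0118). IFNGR2 was the gene in this cluster that passed the test for a rise. Next to IFNB1, HACD4 rose by 1.77 (edgeR adjusted p = 1.08e-13) and FOCAD by 0.29, with 370 and 437 counts of HACD4 in UHRF1 KO against 103 and 85 in control. On the other side of IFNB1 the interferon genes IFNW1, IFNA21 and IFNA7 had at most 6 counts in a library and IFNA4, IFNA10, IFNA16 and IFNA17 had 0. FOCAD was at 0.04 with libraries recentred (edgeR adjusted p = 0.527). Beside IFNLR1 3 neighbours were tested: IL22RA1, described above, was called higher, MYOM3 fell by 0.52 and GRHL3 did not pass the test (log2 fold change -0.40).

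**Figure D3:**
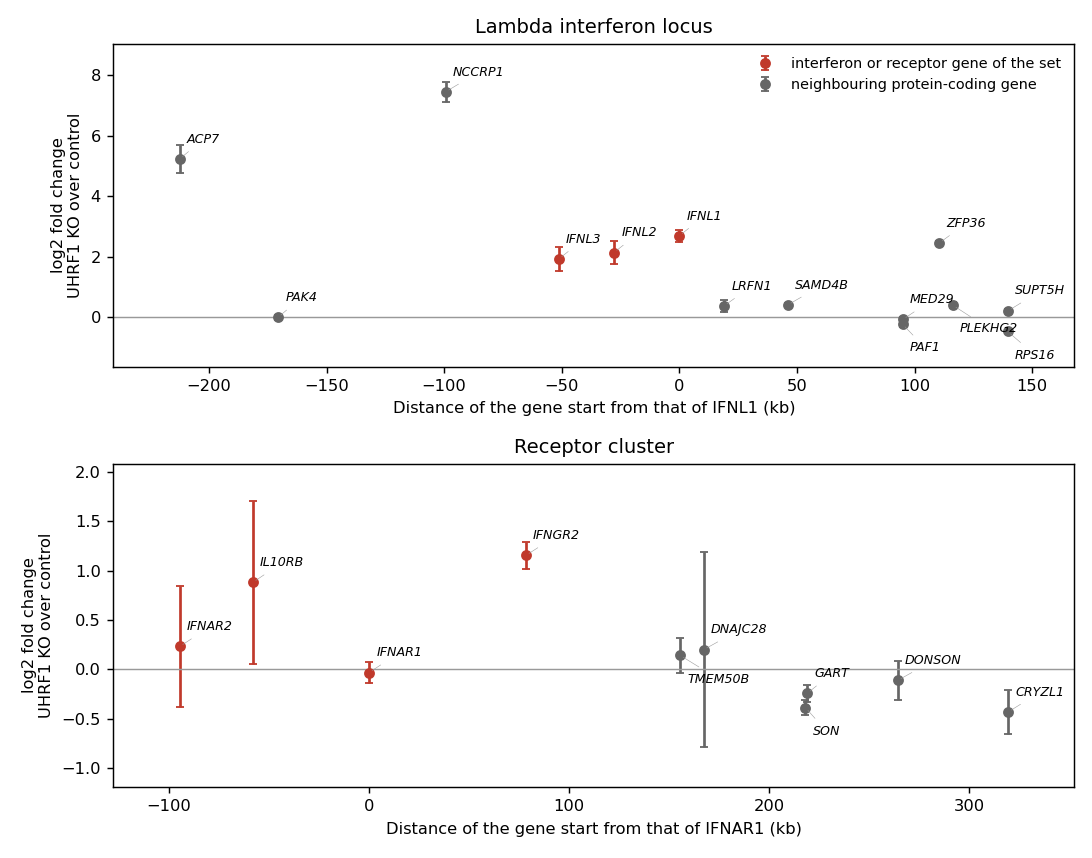
log2 fold change of UHRF1 KO over control, with bars for approximate 95% intervals, against the distance in kb of each gene's start from that of IFNL1 (upper panel) or IFNAR1 (lower panel), for tested genes of the set and their protein-coding neighbours. In the upper panel NCCRP1 at 7.46 and ACP7 at 5.24 lie above the lambda interferons, and in the lower panel IFNGR2 at 1.15 stands above the neighbours.

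Genes with a like pattern were sought among 13705 other protein-coding genes tested, by the Euclidean distance between centred log2 CPM over the 4 libraries. OAS2 was the second nearest to IFNL1 (distance 0.0857), between C11orf86 (0.0695) and the collagen gene COL6A1 (0.101). The nearest to IFNB1 were LCN12 (distance 0.0725), CACNB2 (0.132) and GCNT4 (0.137). With 2 groups of 2 libraries such a distance mostly reflects a like fold change.

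**Figure D4:**
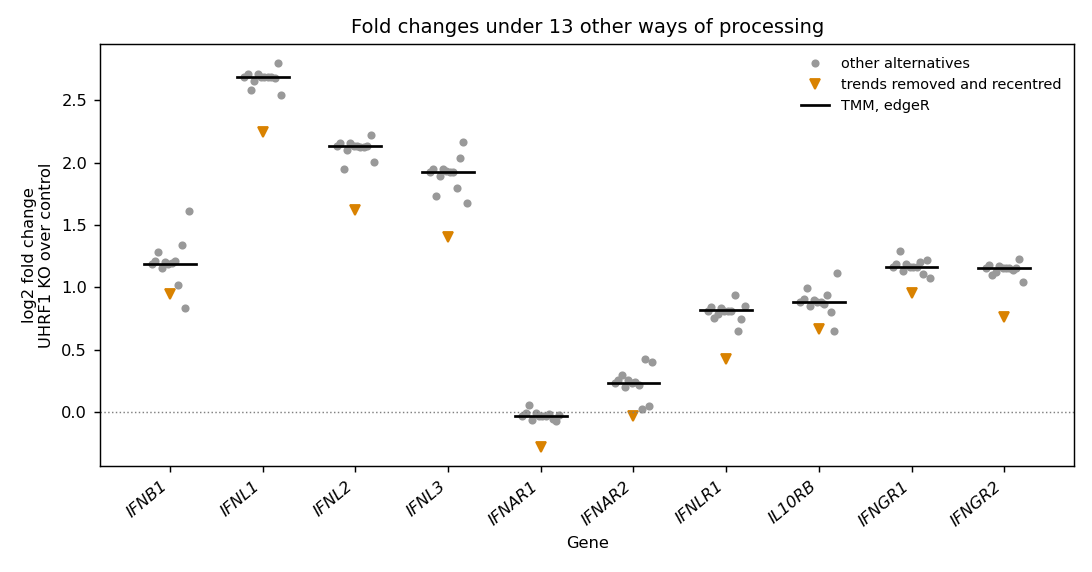
log2 fold change of UHRF1 KO over control for the 10 genes, with a black line for the value given in the text, grey circles for 12 alternatives and a triangle for the one with GC and length trends removed and libraries recentred. The interferons, IFNLR1, IFNGR1 and IFNGR2 stay above 0 throughout, and IFNAR1 runs from -0.28 to 0.06.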

How the data were processed

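RNA-seq was done on 4 A549 samples, 2 given a guide against UHRF1 and 2 given a non-targeting guide. Per the labels' protocols, Trizol was used for the RNA and a SMARTER mRNA-Seq kit for the libraries. The authors deposited raw read counts per Ensembl gene, not normalized. FastQC 0.10.1 and GRCh38 appear in the submitters' processing notes, while the aligner, counter, annotation, strand setting and treatment of ambiguous reads were not given in the sources used here. All 58735 identifiers were found in GENCODE 29. Control columns were matched to samples by the replicate number in the titles, since both controls carry the same short name, so the group is certain but the number less so.

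Counts were tested with edgeR 4.0.16 in R 4.3.3: filterByExpr with the group (17030 genes kept), TMM, quasi-likelihood test with robust moderation, two-sided, Benjamini-Hochberg adjustment over all genes tested, threshold 0.05. Fold changes come from this fit, and each SE, obtained by dividing the size of the log2 value by the root of F, is approximate. A chi-square test gave 1.85 per degree of freedom for the UHRF1 KO pair and 2.65 for the control pair, so the libraries differed by more than counting noise. This cannot tell separate cultures from separate preparations of the same RNA. Each pair was treated as 2 samples, and the common coefficient of variation of the fit was 3.16%. The steps were tested on simulated counts: of 50 genes changed 2-fold 45 were recovered, of 50 changed 1.5-fold 32, and of 49 changed 1.2-fold 13 (16501 genes). Only 200 genes were set to change there, up and down alike and with a common spread, whereas 62.0% of genes were called here. The simulation thus does not test the scaling of the libraries. Lengths are unions of exons.

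Alternatives were DESeq2 size factors, upper-quartile factors, GC and length trends removed with and without recentring, no filter, a floor of 1 CPM in 2 libraries, a replicate block, single libraries left out, the tools DESeq2 1.42.0 and limma-voom (limma 3.58.1). Summing IFNL2 and IFNL3 was added after seeing the data. The members, gene lists and tests were chosen with earlier results of these data known. Genes named were UHRF1, the members, from each list the called genes of lowest adjusted p, up to 4, all called receptor signalling genes, other class II receptors with a count, protein-coding genes within 150 kb of a member and the 3 nearest profiles of IFNB1 and IFNL1. TRIM25, WARS, HERC6, TMEM173, MX2, IFI44L, EPSTI1, RTP4, GBP5, IDO1, COL1A2, PDGFRB, IFNE, IFNL4, IFNA1, IFNG, EPCAM, PECAM1, KRT8, KRT18, LILRA4 and CLEC4C were named after their values were seen. A further signalling gene is not reported here.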

Additional observations from a re-analysis of the deposited data

How the results depend on the processing

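The 4 interferons, IFNLR1, IFNGR1 and IFNGR2 kept their direction and their call in all 13 alternatives, and the count of receptor chains called higher was 3 or 4. Removing GC and length trends with recentring changed many calls: 3233 genes were then higher and 8903 lower, IFNAR1 was called lower (-0.28, edgeR adjusted p = 4.43e-06), and genes called lower numbered 1 among the other interferons (IFNE), 6 among induction genes, 2 in receptor signalling, 5 among negative regulators (with 3 higher) and 2 among gamma targets. It also turned IL22RA1 (-0.0043), LRFN1 (-0.20), SAMD4B (-0.0641), PLEKHG2 (-0.0591) and SUPT5H (-0.27), of which SUPT5H was called lower. Asking for at least 2-fold left 2616 genes higher and 432 lower. IL10RB was called with a minimum of 1 CPM in 2 libraries (0.90) and with trends removed without recentring (1.00). Gamma targets called lower numbered 0 with upper-quartile factors and with DESeq2, and 0 to 1 with single libraries left out. Markers of other cell types called higher numbered 9 with no filter and 5 to 8 with single libraries left out, the 8 without control replicate 1. Leaving out single libraries gave log2 fold changes of 2.55 to 2.80 for IFNL1, 0.83 to 1.62 for IFNB1 and 0.02 to 0.42 for IFNAR2. With the replicate number as a block, a check since the numbers do not pair the samples (correlation of deviations -0.014 over 17030 genes), 5280 genes were higher and 4986 lower. Low depth limits IFNB1, IFNAR2 and IL10RB, which had 9 to 36 counts in control libraries.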
